A study of Oryza sativa with 6 samples.

Results

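Among the reconstructed transcripts of the rice cultivar N22, 79 gene loci with a single isoform model were strongly reduced in developing seeds under combined heat and drought stress but could still be measured there. These loci were selected from the expression values themselves. A member had exactly 1 isoform model, a mean expression over all 6 libraries from 5 to under 1000 CPM, a highest stressed value of at most 0.5 times the lowest control value, and a TPM of at least 1 in at least 1 stressed library. CPM are counts relative to the size of the library, scaled with the TMM factors of edgeR, which correct for differences in library composition. TPM are corrected for the length of the transcript, so only TPM are used here to compare different loci. The TPM are those of kallisto and carry no TMM factors. Of 13343 gene loci, 9931 with a B identifier held a single isoform model, 7604 of these lay within the range of 5 to under 1000 CPM, and 79 met all conditions (1.04%).

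N22 belongs to the aus subgroup of rice. Plants came from a field trial in the Philippines. The 3 control libraries came from plants on flooded plots. The 3 stressed libraries came from plants that experienced heat together with drought, with rain kept off by a shelter, while the grains began to fill. Both conditions used the same cultivar and tissue, and the replicates were biological replicates, but the number of plants or seeds behind each is not given in the sources used here. A developing rice seed contains the embryo, the endosperm and maternal tissues.

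During early grain filling, the endosperm of a cereal seed forms its cell layers and begins to store starch and protein, fed by sugars and amino acids from the leaves. Heat and drought at this stage are known to shorten grain filling and to lower grain weight, and many transcripts of growth and storage change in abundance. A locus with a single isoform model has the advantage that its reads do not need to be divided among alternative transcripts of the same gene. The identifiers are the names the study gave to its own N22 models, and the expression tables used here do not pair them with gene names. The functional annotation of these models was not used here, so the loci are described by their identifiers, and neither their roles nor tissue markers were examined.

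Total counts were between 20623931 and 24624992 per library, and the TMM factors ranged from 1.10 to 1.197 for control libraries and from 0.842 to 0.904 for stressed ones. The lowest count of a member in any library was 7. In 70 of the 79 loci (88.6%), the estimated counts were whole numbers, within 0.01, in all 6 libraries, against 90.7% of the 7604 single-isoform loci in the CPM range. A whole number is what kallisto returns when it divides no read of a locus with another transcript. B8238, B2884 and B494 had whole numbers in no library, so part of their reads was shared with other transcripts and their levels are less certain. Another 6 members had whole numbers in only 1 to 5 libraries, so some of their reads were shared as well.

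Across the 79 loci, the mean level in stressed seeds was between 5.55% and 44.6% of the control level in CPM, with a median of 24.9%. On the log2 scale, the fold change of the edgeR fit had a median of -2.01 (quartiles -2.39 and -1.66), whereas it was -0.02 for all 12726 tested loci. In 8 members, expression was lower by 3 or more log2 units, in 32 by 2 to under 3, in 25 by 1.5 to under 2 and in 14 by less than 1.5. All of these differences are part of the selection and are given as a description only. In whole seeds, fewer cells of a type and less RNA per cell cannot be told apart.

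In TPM, the loci had a median level of 24.4 in control (range 5.69 to 631) and of 3.44 in stressed seeds (range 0.915 to 128). The 7604 single-isoform loci in the CPM range had medians of 18.8 and 13.5 TPM. Since TPM carry no TMM factors, the members kept less of their control level in TPM (median 18.2%) than in CPM (median 24.9%). By mean TPM, all 79 took a lower rank among all loci in stressed seeds than in control, with a median rank of 4864 in control and 10727 under stress. The selection on a fall in these same libraries largely fixed this lower rank, so it is a description only. Most remained measurable in every library, since 72 members had at least 1 TPM in all 3 stressed libraries, 3 in 2 and 4 in only 1. A TPM of 10 or more in all 3 stressed libraries was kept by 9 members, and 10 stayed under 2 TPM in all of them.

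In the edgeR fit, 79 of the 79 loci passed the filter on low counts and were called lower (adjusted p under 0.1 over all tested loci, log2 fold change of at most -1), where 5.23% of the 12726 tested loci and 3.58% of the 7604 single-isoform loci in the range were called lower. The loci were chosen on the same contrast, so nothing is read from this count. With library size in place of the TMM factors, the median of all tested loci moved from -0.02 to -0.40 and that of the members from -2.01 to -2.38, so that the fall relative to all loci was about as large.

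**Figure D1:**
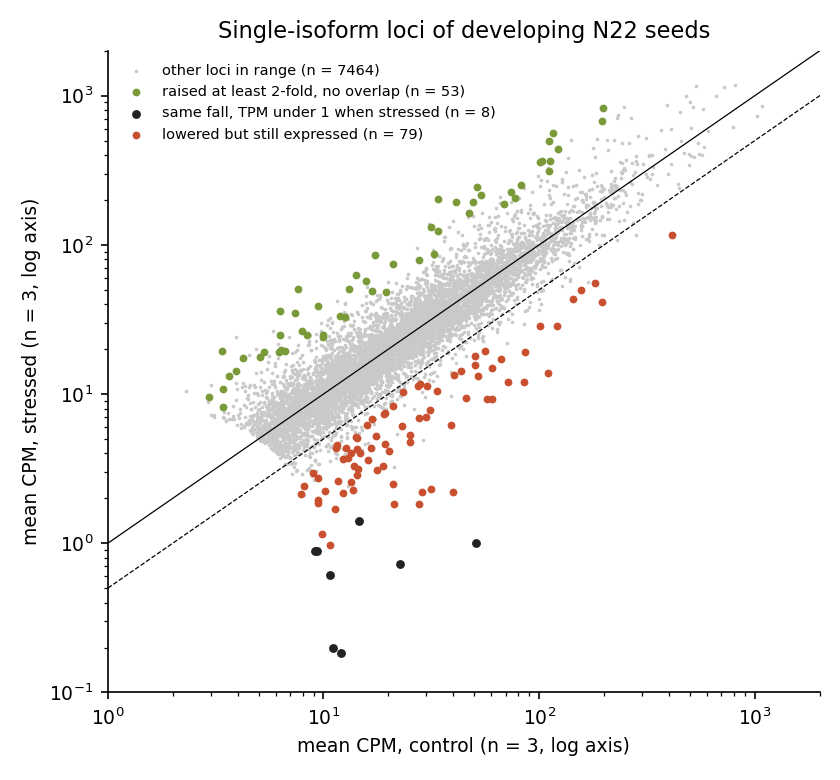
Mean CPM in control (x axis) and stressed (y axis) developing seeds, both on log axes, for the 7604 single-isoform loci in the CPM range, where each point is a locus, the solid line marks equal levels and the dashed line 0.5 times the control level. The 79 loci lowered but still expressed lie below the dashed line at control levels from 7.85 to 412 CPM, the 8 loci with the same kind of fall but under 1 TPM in every stressed library lie mostly further down, and 53 loci that were at least 2-fold higher under stress lie above.

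The largest fall was seen for B7537, a model of 1166 bp. It had 28.9, 44.2 and 45.9 CPM in control replicates 1, 2 and 3, and 1.90, 1.48 and 3.22 CPM in stressed replicates 1, 2 and 3. Its log2 fold change was -4.17 (standard error 0.29), and the stressed libraries kept 5.55% of the control mean. Among the stressed libraries, replicate 3 was the highest, and the highest and lowest of them differed 2.17-fold.

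B11855 had 20.5, 33.8 and 39.9 CPM in control replicates 1 to 3, and 2.51, 2.17 and 2.25 CPM in stressed replicates 1 to 3. B11601 had 23.5, 30.5 and 31.8 CPM in control and 2.23, 1.85 and 2.52 CPM in stressed seeds, in the same order of replicates. The log2 fold changes were -3.76 (standard error 0.26) and -3.70 (standard error 0.19). Both loci varied in control more than under stress in absolute CPM. Relative to the level, this held for B11855 only, whose highest and lowest libraries differed 1.95-fold in control and 1.16-fold under stress. In B11601 they differed 1.36-fold in both conditions.

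B3602 was among the weakest members that were still detected. Its levels were 9.07, 13.3 and 9.82 CPM in control and 1.23, 0.795 and 0.911 CPM in stressed replicates 1, 2 and 3, a log2 fold change of -3.45 (standard error 0.27). In TPM, it reached 1.08 in stressed replicate 1 and lay under 1 in stressed replicates 2 and 3. Stressed replicate 2 held 15 counts, for which the exact Poisson interval is 8.40 to 24.7 counts (95%, counting error only), so its residual level is known only roughly.

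At the other end, 4 members kept 40% or more of their control level. B4712 had the smallest fall, with 23.8, 21.97 and 24.2 CPM in control and 10.1, 10.4 and 10.8 CPM in stressed replicates 1, 2 and 3. Its log2 fold change was -1.16 (standard error 0.13) and it kept 44.6%. The replicates of each condition lay within a narrow band in both conditions.

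B4712 shared this low spread with B185 and B2703, the loci with the smallest variation within conditions. B185 had 19.4, 18.3 and 19.1 CPM in control and 3.13, 3.39 and 3.38 CPM in stressed replicates 1 to 3 (log2 fold change -2.52, standard error 0.16). B2703 had 16.4, 14.9 and 16.1 CPM in control and 6.48, 6.15 and 6.06 CPM under stress (log2 fold change -1.35, standard error 0.15). In these loci, the gap between the conditions was many times wider than the range of the replicates. They were picked for their small spread from loci selected for a fall, so this is a description only.

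The members nearest to the median fall were B1141 and B11053. B1141 had 21.6, 27.3 and 33.8 CPM in control and 6.65, 4.93 and 9.01 CPM in stressed replicates 1 to 3. B11053 had 37.5, 24.1 and 32.2 CPM in control and 4.80, 8.16 and 10.4 CPM under stress. They kept 24.9% and 24.8% of their control level, and the stressed libraries of B11053 differed 2.15-fold.

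Transcript abundance was unevenly distributed over the set. Over all 79, the sum of TPM was 3071, 3451 and 4922 for the control libraries, compared with 507, 623 and 859 for the stressed libraries, in the order of the replicate numbers. The 4 most abundant members made up 41.6% of the mean sum in control. Of all counts, the 79 loci took 0.378% ± 0.0720 (SD, n = 3) under control conditions, compared with 0.0734% ± 0.0151 (SD, n = 3) under stress. Neither the sums of TPM nor these shares carry TMM factors.

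The most abundant member was B13000, with 432, 716 and 744 TPM in control and 136, 82.0 and 167 TPM in stressed replicates 1, 2 and 3. In CPM, it had 287, 482 and 467 in control and 136, 73.9 and 141 under stress (log2 fold change -1.82, standard error 0.28). It kept 28.4% of its control level in CPM and was also the most abundant member in stressed seeds, with 19.3% of the TPM sum of the set. Control replicate 1 was the lowest of its condition, and stressed replicate 2 was well below the other two stressed libraries.

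B8238, a model of 685 bp, followed with 342, 356 and 418 TPM in control and 37.3, 102 and 110 TPM in stressed replicates 1 to 3. Its log2 fold change was -1.71 (standard error 0.31). The control libraries were close to each other, while stressed replicate 1 was well below the other stressed libraries. Its reads were partly shared with other transcripts, as given above.

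B5836 had 71.6, 107 and 142 TPM in control and 7.62, 11.2 and 17.1 TPM in stressed replicates 1 to 3. Its log2 fold change was -2.70 (standard error 0.29), and it kept 15.4% of its control CPM. B9462, a long model of 2776 bp, had 104, 267 and 217 CPM in control and 29.0, 43.7 and 51.6 CPM under stress, with a log2 fold change of -2.24 (standard error 0.36). In control, its lowest library, replicate 1, was well below the others, so B9462 lay only just inside the fold limit although it kept no more than 21.1% of its mean.

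Short and long models were both present. The lengths ranged from 351 to 3326 bp with a median of 1314 bp (quartiles 953 and 1800 bp), against a median of 1446 bp (quartiles 1036 and 1903 bp) for the single-isoform loci in the CPM range. The longest member, B7295, had 57.3, 49.6 and 61.1 CPM in control and 17.98, 18.9 and 21.6 CPM in stressed replicates 1 to 3 (log2 fold change -1.52, standard error 0.13), with little variation in either condition. B2884, of 3288 bp, had 54.9, 35.6 and 82.3 CPM in control and 7.20, 6.57 and 13.99 CPM under stress (log2 fold change -2.64, standard error 0.40), highest in replicate 3 of each condition. On the plus strand of the reference lay 37 members and on the minus strand 42. The plus strand held 50.7% of the loci in the range.

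**Figure D2:**
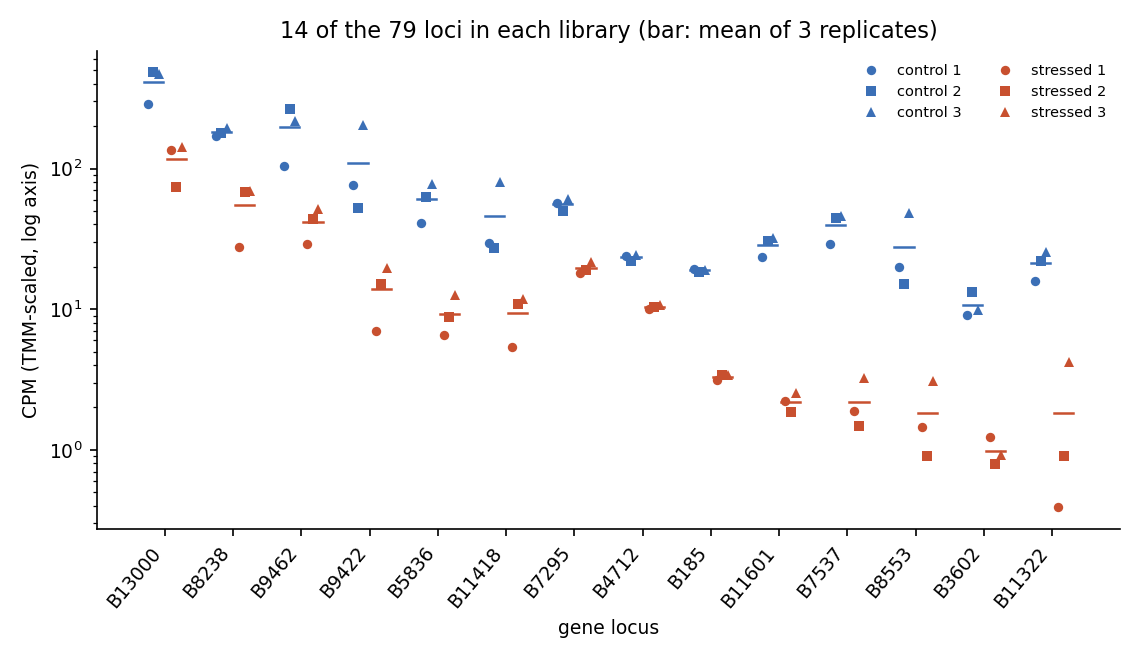
CPM (log axis) of 14 of the 79 loci in each of the 6 libraries, with control libraries in blue, stressed libraries in red, a symbol for each replicate number and a bar at the mean of 3 replicates. In all 14 loci the stressed libraries lie below the control libraries, tightly grouped in B4712 and B185 and widely spread in B11322, B8553 and B9422, where replicate 3 is the highest of its condition.

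Replicates differed more in the members than in all single-isoform loci in the range. The SD of log2 CPM among replicates had a median of 0.23 in control and 0.31 in stressed seeds, compared with 0.16 and 0.17 for the single-isoform loci in the range. The medians were 0.29 in control and 0.34 in stressed seeds for 193 other single-isoform loci in the range that were called lower. In 32 multi-isoform loci with the same kind of fall, they were 0.28 and 0.32. In the 53 loci at least 2-fold higher under stress, they were 0.48 and 0.27. Such a spread was thus not particular to the members. For the stressed libraries of the members, lower counts accompany the larger spread, and the part of the level in it was not tested.

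The widest spread under stress was found for B11322, B11585 and B3966. B11322 had 15.9, 22.2 and 25.3 CPM in control, but 0.391, 0.901 and 4.18 CPM in stressed replicates 1, 2 and 3. Its 7 counts in stressed replicate 1 have an exact Poisson interval of 2.81 to 14.4 counts (95%). Stressed replicate 3 was 4.64-fold above the next stressed library and set the size of the fall, since the log2 fold change of -3.52 (standard error 0.67) became -5.01 without it.

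B11585 had 27.3, 38.4 and 51.9 CPM in control and 2.85, 3.81 and 12.0 CPM in stressed replicates 1 to 3. Its log2 fold change was -2.66 (standard error 0.55) with all libraries and -3.55 without stressed replicate 3. B3966 had 19.7, 20.7 and 17.5 CPM in control and 4.80, 2.12 and 6.97 CPM under stress (log2 fold change -2.06, standard error 0.33). In B3966 the stressed libraries differed 3.29-fold while the control libraries were nearly equal.

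In control, the spread was widest for B9422, B11417 and B11418, all with short models of 520, 371 and 351 bp. B9422 had 75.8, 52.4 and 203 CPM in control replicates 1, 2 and 3, and 7.04, 15.0 and 19.7 CPM in stressed replicates 1, 2 and 3. Control replicate 3 was 2.68-fold above the next control library. The log2 fold change of -2.98 (standard error 0.64) was -2.19 without that library. The size of the fall thus rested in part on control replicate 3, while its direction was fixed by the selection.

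B8553 was high in replicate 3 of both conditions. It had 19.9997, 15.1 and 48.1 CPM in control and 1.45, 0.901 and 3.11 CPM in stressed replicates 1 to 3. Its log2 fold change was -3.92 (standard error 0.63), -3.26 without control replicate 3 and -4.56 without stressed replicate 3. It was the only member in which replicate 3 was at least 2-fold above both other replicates in control and under stress alike. A control value this high was found in 4 members and a stressed value this high in 3.

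This position of replicate 3 held for most of the set. Control replicate 3 was the highest control library in 55 of the 79 loci (69.6%) and stressed replicate 3 the highest stressed library in 61 (77.2%), both in the same locus in 44. In the 7604 single-isoform loci in the range, the shares were 35.9% and 34.1%, and replicate 3 was highest in both conditions in 13.8%, against 55.7% of the members. The median deviation of the members from their condition mean was 0.19 log2 units in control replicate 3 and 0.25 in stressed replicate 3. It was -0.17 and -0.14 in replicate 1 of control and stress.

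The same was seen in loci outside the set. Of 193 other single-isoform loci in the range that were called lower, control replicate 3 was highest in 59.6% and stressed replicate 3 in 63.2%. In the 53 single-isoform loci that were at least 2-fold higher under stress in every library, the order was turned around. Control replicate 3 was there the lowest control library in 45 loci (84.9%) and stressed replicate 3 the lowest stressed library in 43 (81.1%). In the 7604 single-isoform loci in the range, these shares were 39.0% and 36.1%. In the lowered and in the raised loci, replicate 3 thus most often lay on the control side of replicates 1 and 2, in both conditions. These comparisons are descriptions, since the sets were chosen by the values of the same libraries.

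Replicate 3 also had the highest TMM factor of each condition, 1.197 in control and 0.904 under stress, and a higher factor lowers the CPM of its library. The part of library composition in this order was not tested. With library size only in place of the factors, replicate 3 was highest in 66 members in control and in 64 under stress, and with TPM in 66 and 67. The numbers of the replicates are not known to mark a shared plot or day. Without replicate 3 of both conditions, an alternative chosen after seeing the data, the median log2 fold change of the 79 loci was -2.02.

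**Figure D3:**
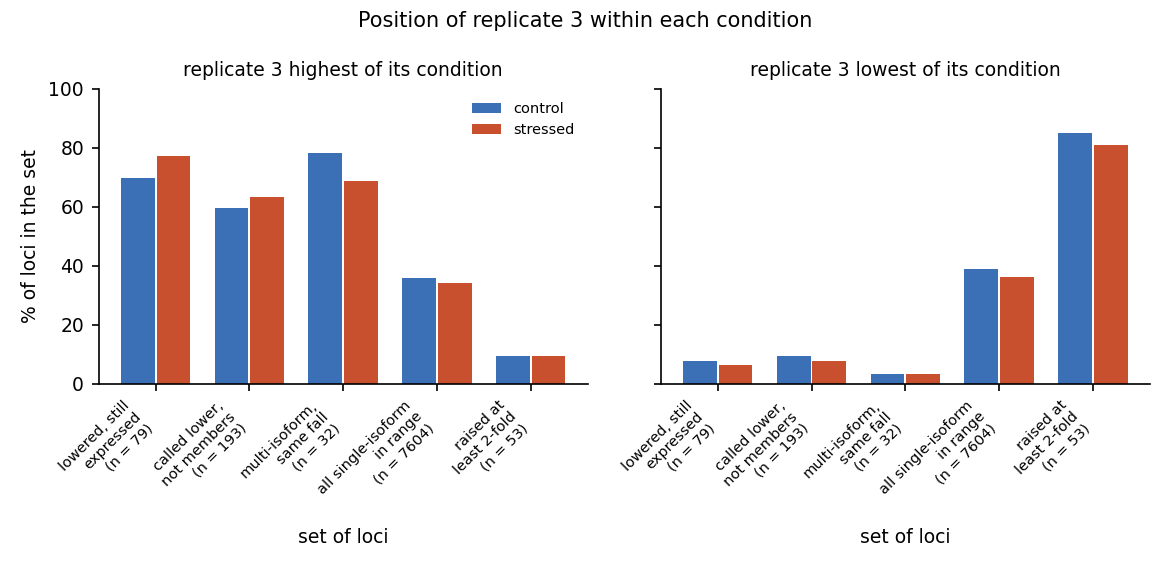
Percentage of loci (y axis) in which replicate 3 was the highest (left) or the lowest (right) library of its condition in CPM, with control in blue and stressed in red, for the 79 lowered loci, 193 other single-isoform loci called lower, 32 multi-isoform loci with the same kind of fall, all 7604 single-isoform loci in range and 53 raised loci. Replicate 3 was highest in 69.6% and 77.2% of the 79 loci and lowest in 84.9% and 81.1% of the raised loci.

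Some members carried consecutive numbers. The numbers are those of the reconstructed loci, and the sources used here do not say whether they follow the order on the genome. B11416, B11417 and B11418 formed a run of 3 members and B12999 and B13000 a run of 2. B12999 and the other loci numbered next to the runs were chosen for description after their values were seen. All models within a run were on the same strand, and the estimated counts of these 5 members were whole numbers in all 6 libraries.

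B11418 had 29.4, 27.2 and 80.8 CPM in control and 5.42, 10.9 and 11.9 CPM in stressed replicates 1, 2 and 3. B11417 showed the same order, with 8.88, 6.99 and 25.2 CPM in control and 1.56, 2.17 and 3.11 CPM under stress. In both, control replicate 3 was more than 2-fold above the other control libraries and stressed replicate 1 was the lowest stressed library. Their log2 fold changes were -2.28 and -2.58 (standard error 0.54 each), and without control replicate 3 they were -1.58 and -1.79.

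B11416 was lower under stress by a similar factor but without the high value in control replicate 3. It had 9.11, 10.1 and 11.3 CPM in control and 1.23, 2.33 and 3.11 CPM in stressed replicates 1 to 3 (log2 fold change -2.19, standard error 0.29). The next number, B11419, with a model of 2682 bp, did not meet the fold limit. It had 25.7, 33.6 and 43.6 CPM in control and 11.4, 11.6 and 23.8 CPM under stress. B11415 and B11420, on either side, had 98.5% and 147% of their control level in stressed seeds, so the low stressed values were found in a stretch of 4 numbers.

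B12999 had 19.96, 35.7 and 34.3 CPM in control and 7.09, 4.77 and 9.22 CPM in stressed replicates 1 to 3, a log2 fold change of -2.09. Like B13000, it was lowest in replicate 1 among the control and in replicate 2 among the stressed libraries. The preceding numbers B12997 and B12998 were no members. B12997 had 74.7, 123 and 102 CPM in control and 44.0, 24.5 and 42.1 CPM under stress, and B12998 had 24.98, 43.2 and 29.8 CPM in control and 22.7, 11.8 and 18.8 CPM under stress.

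The 4 loci B12997 to B13000 thus all had their lowest control value in replicate 1 and their lowest stressed value in replicate 2. Their models were of similar length, 794, 822, 767 and 869 bp, and on the plus strand. B12996 and B13001, the numbers on either side, had 97.4% and 89.5% of their control level in stressed seeds. B13002, 1 number further on, was again lower in every stressed library than in any control library. It kept 52.2% of its control level, at a low mean of 2.80 CPM. Over the whole set, 143 tested loci that were no members had a number next to a member. Of these, 13 (9.09%) were called lower, against 5.23% of all tested loci, 5 were called higher, and their median log2 fold change was -0.06, close to the -0.02 of all tested loci.

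**Figure D4:**
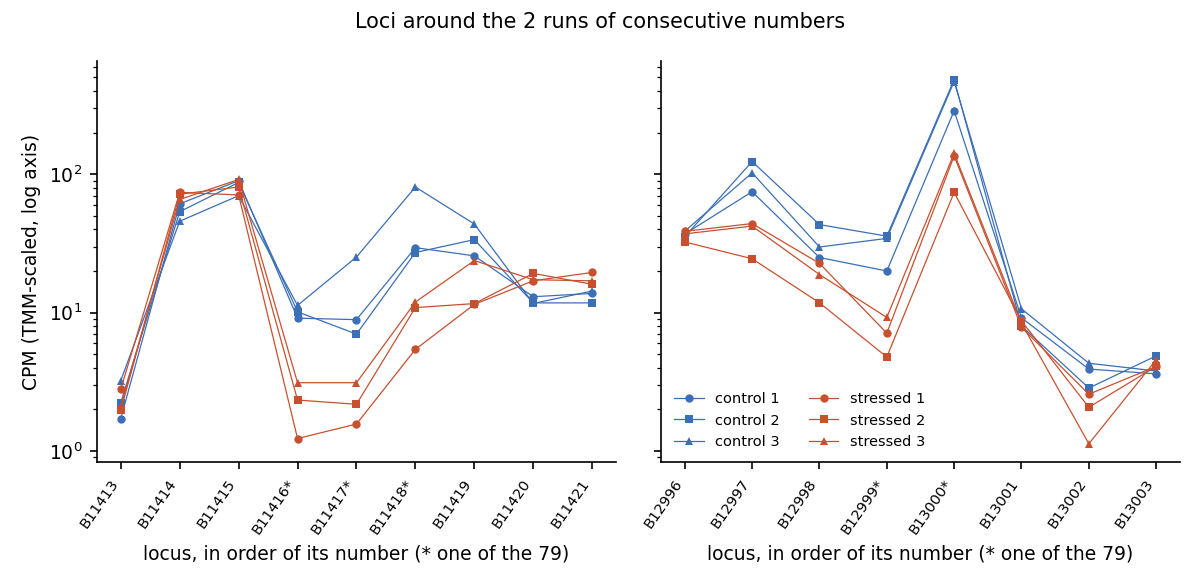
CPM (log axis) in each library for the loci numbered around B11416 to B11418 (left) and around B12999 and B13000 (right), in order of their number, with control libraries in blue, stressed libraries in red and members marked with an asterisk. The stressed lines drop below the control lines from B11416 to B11419 and from B12997 to B13000 and stand at 89.5% to 147% of the control mean at the next number on either side. Further to the right, the weakly expressed B13002 (mean 2.80 CPM) also has its stressed values below its control values, at 52.2% of the control mean.

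The selection was repeated with fewer libraries to measure the fall in libraries whose values it had not used. The TMM factors came from all 6 libraries, so the libraries left out still entered the scaling. For each of the 9 pairs of 1 control and 1 stressed library, the conditions were applied to the other 4 libraries and the ratio was then taken within the pair left out. Between 92 and 203 loci were chosen, so these sets were not the 79 members. Of these, 47.8% to 94.7% had at most 0.5 times the control CPM in the pair left out (median over the pairs 82.9%), whereas 2.48% to 7.94% of all single-isoform loci in the range did. The median log2 ratio of the chosen loci in the pair left out was between -2.06 and -0.96.

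The result depended on which libraries were left out. When stressed replicate 3 was left out with control replicate 1, 97 of 203 loci were at or under 0.5 times control (47.8%), and with control replicates 2 and 3, 99 of 162 (61.1%) and 102 of 133 (76.7%). When control replicate 3 was left out with stressed replicate 2, 89 of 94 were (94.7%). Summed over the pairs, which share libraries and loci, 1196 of 1215 ratios were under 1, although the highest was 1.65. A locus could be chosen for several pairs, so 1215 is not a number of separate loci. For all single-isoform loci in the range, the share under 1 was not counted. Their median log2 ratio in the pair left out was between -0.014 and 0.001.

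**Figure D5:**
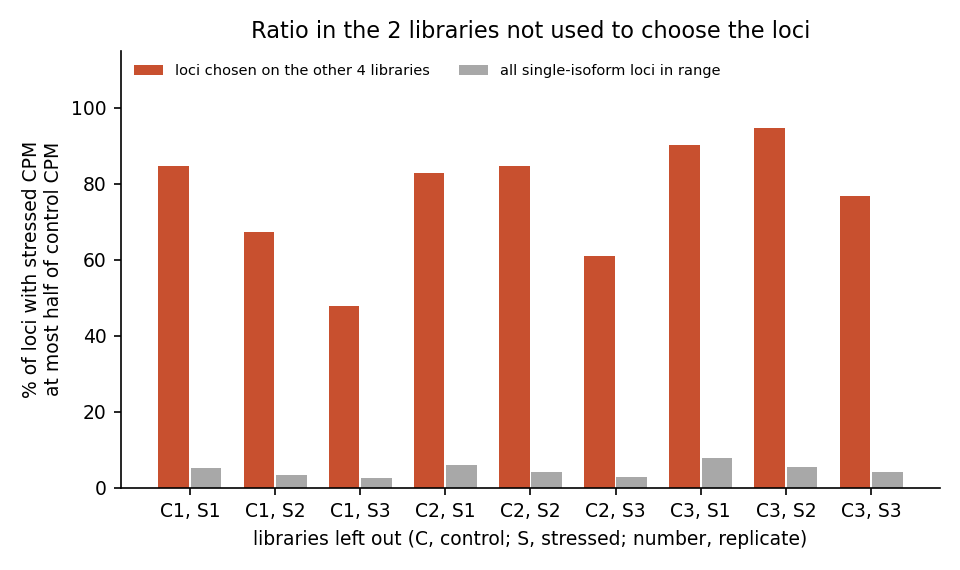
Percentage of loci (y axis) with a stressed CPM of at most 0.5 times the control CPM in the 2 libraries left out (x axis, C for control and S for stressed with the replicate number), in red for loci chosen on the other 4 libraries and in grey for all single-isoform loci in the range. The red bars lie between 47.8% and 94.7%, lowest where control replicate 1 and stressed replicate 3 were left out, and the grey bars between 2.48% and 7.94%.

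Loci just outside the limits resembled the members just inside. B12067 had 78.7, 79.2 and 104 CPM in control and 31.2, 38.8 and 39.4 CPM in stressed replicates 1 to 3, which missed the fold limit by less than 0.1 CPM. B3539 and B607 followed, with ratios of highest stressed to lowest control of 0.505 and 0.506. Just inside were B8610, B9462 and B7160, with ratios of 0.498, 0.494 and 0.494. B8610 had 10.6, 11.3 and 12.7 CPM in control and 3.46, 4.87 and 5.25 CPM under stress, and B7160 had 28.1, 37.0 and 35.3 CPM in control and 8.32, 9.11 and 13.9 CPM under stress.

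At the lower limit of 5 CPM, B2872 and B2239 were members with mean levels of 5.002 and 5.26 CPM, and B7789 and B11032 fell just short with 4.98 and 4.94 CPM. No single-isoform locus of this kind lay above 1000 CPM, and the highest mean of a member was 265 CPM. The TPM condition separated B3602 and B6255, with highest stressed values of 1.08 and 1.12 TPM, from B2999 and B10711 with 0.884 and 0.844 TPM. Altogether, 8 loci met all other conditions but stayed under 1 TPM in every stressed library.

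Loci with several isoform models also met the remaining conditions. Of 2924 loci with more than 1 model in the same CPM range, 32 met the remaining conditions (1.09%, against 1.04% of the single-isoform loci). They had a median log2 fold change of -1.95 and kept a median of 26.0% of the control CPM, near the -2.01 and 24.9% of the single-isoform loci. Both groups passed the same fold limit, so similar falls were largely set by the selection. The median levels of the 32 loci, summed over the models of a locus, were 28.6 TPM in control and 5.79 TPM in stressed seeds.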

How the data were processed

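The authors quantified single-end reads of directional libraries with kallisto 0.45 against their PacBio N22 transcriptome. They deposited estimated counts and TPM per isoform model, and estimated counts per locus, which equalled the sums over models. Trimming and strand settings are not given in the sources used here. Estimated counts per locus were rounded, scaled with TMM factors on all loci, and fitted with edgeR 4.0.16 in R 4.3.3 (filterByExpr with a minimum count of 10, quasi-likelihood with robust dispersions, Benjamini-Hochberg adjustment). SD values of log2 CPM used an offset of 0.1 CPM. Standard errors were derived from the F statistic. Alternatives were DESeq2 1.42.0, limma 3.58.1 on log2-transformed TPM after adding 1 or 0.1, other scalings and filters, each replicate left out in turn, and a replicate block. The code was tested on simulated data. One further choice, leaving out replicate 3 of both conditions, was made after seeing the data.

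The members and lists were chosen with earlier results of these data known. Loci named are those with the largest and the median fall, the highest control and stressed TPM, the values nearest each limit on both sides, the shortest and longest models, the largest and smallest spread, and the longest run of consecutive numbers. No p-value of a member is given, since the selection used the same contrast.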

Additional observations from a re-analysis of the deposited data

How the results depend on the processing

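The number of loci meeting the conditions was 79, 182 with library size only, 220 with TPM for the fold condition, 23 with a 3-fold limit and 51 from a mean of 10 CPM. All 79 were among the 182 and the 220. Without TMM factors the ratios of stressed to control are lower, so this overlap was largely fixed beforehand. Leaving out libraries gave 74 to 134 loci, with 134 without stressed replicate 3, 122 without control replicate 1 and 132 without replicate 3 of both conditions. For that last case, the held-out selection above, with TMM factors from all 6 libraries, gave 133. Of the 79 loci, 67 were chosen in all 6 selections that left out 1 library. At a given scaling, leaving out a library can only loosen the fold condition, so this overlap does not measure stability either. The median log2 fold change was -2.38 with library size only and -2.48 with limma on log2(TPM + 0.1), and -2.15 to -1.83 without 1 library. Requiring 10 counts or more in each library left 78 of the 79 to be tested. The test against a minimum log2 fold change of 1 (glmTreat) called 54 of the 79 lower, and 1.05% of all tested loci. The 28 named members kept their direction and call in all 419 values under the alternatives, but the selection had fixed the direction in these same libraries, so this is no sign of stability.

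Replicate numbers were not taken to pair the samples, since no source says that they mark a shared plot or day, and the deviations of same-numbered libraries correlated with r of 0.17, 0.03 and 0.25 over the tested loci, where control replicate 2 went best with stressed replicate 1 (0.12). Over the 79 loci alone, r was 0.08, 0.10 and 0.29, and each control library went best with the stressed library of its own number, but stressed replicate 1 went best with control replicate 2 (0.09). With the replicate block, the median was -2.02 and all 79 loci were called lower, as were 5.41% of all tested loci.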
